A study of Zea mays with 6 samples.

Results

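The miRNAs described here are those of the families miR827, miR399 and miR395 in maize ovaries, together with the transcripts at which sequences of these families had degradome signal. The table of known miRNAs was searched for names with one of these family numbers that do not give the 5p arm, which are the guide strands, the arm that is known to act on targets. This gave 6 guide strands of 161 known miRNAs, 2 of miR827 and 4 of miR399. No guide strand of miR395 is listed, and the family appears there only by 1 row of its 5p arm. A further 10 rows hold the opposite (5p) arm of the same 3 families. In the degradome table, 13 of 471 rows carry a name of these families, 5 of miR399, 8 of miR395 and 0 of miR827, and they fall on 7 genes.

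All ovaries came from the inbred line Yu-A474, grown without imposed stress, with bagged ears and collected at silking before pollination. Incompletely fused carpel (IFC) ovaries have a carpel wall that does not close at the top, and completely fused carpel (CFC) ovaries, which the sample labels name wild-type, have a closed wall. IFC ovaries were picked beside CFC ovaries of the same ear, so both phenotypes share the line, the ear and the stage, and no mutant allele or treatment separates them. There were 2 IFC and 2 CFC small RNA libraries, whose replicates came from different ear rows, and 1 degradome library per phenotype, each a mix of both samples of that phenotype.

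Plants use these families to keep mineral nutrients in balance. When phosphate is scarce, miR399 accumulates and acts in Arabidopsis on PHO2, a ubiquitin-conjugating enzyme that holds back phosphate transporters, while miR827 acts on genes with an SPX domain, which take part in phosphate sensing and storage. miR395 rises when sulfate is scarce and is known in Arabidopsis to act on ATP sulfurylases, the enzymes that activate sulfate, and on a sulfate transporter.

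The mature sequences are shown first so that the members of each family can be compared base by base. Bases 2 to 8 from the 5′ end, the seed, are in capitals, although plant miRNAs are known to pair with their targets along most of their length. The sequences are given 5′ to 3′ with T for U, as deposited.
zma-miR827-3p: tTAGATGAccatcagcaaaca
osa-miR827_R+3: tTAGATGAccatcagcaaacattt
zma-miR399a-3p: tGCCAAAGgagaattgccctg
zma-miR399e-3p: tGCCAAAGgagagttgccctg
zma-miR399b-3p: tGCCAAAGgagagctgtcctg
zma-miR399f-3p: tGCCAAAGgaaatttgccccg
zma-miR395a-3p_L-1: tGAAGTGTttgggggaactc

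Both miR827 sequences share 1 seed and all 4 miR399 guide strands share another, and no other known miRNA of the 161 has either seed. Outside the seed, and counting from 1 at the 5′ end, miR399e-3p differs from miR399a-3p by A13G alone. miR399b-3p differs from miR399a-3p by A13G, T14C and C17T, and miR399f-3p by G11A, A13T and T20C. osa-miR827_R+3, named for the rice sequence with 3 more bases at its 3′ end, is zma-miR827-3p followed by TTT, whereas the hairpin listed for it goes on with TGT after the shared 21 bases. The 24-base sequence is therefore not found whole in that hairpin. The last sequence, a miR395 guide strand 1 base shorter at its 5′ end than the reference name, occurs only in the degradome table.

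The hairpins show how the arms lie on the precursors. Both arms are in capitals, the 5p arm first, and the positions are those of the deposited table, whose genome build is not given in the sources used here.
MIR827, chr5:167388787-167388908, minus strand: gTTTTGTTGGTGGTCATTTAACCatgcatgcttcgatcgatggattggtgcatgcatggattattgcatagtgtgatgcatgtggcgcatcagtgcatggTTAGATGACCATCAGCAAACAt
MIR399 with arms miR399j-5p_L-1 and miR399e-3p, chr9:24378460-24378634, minus strand: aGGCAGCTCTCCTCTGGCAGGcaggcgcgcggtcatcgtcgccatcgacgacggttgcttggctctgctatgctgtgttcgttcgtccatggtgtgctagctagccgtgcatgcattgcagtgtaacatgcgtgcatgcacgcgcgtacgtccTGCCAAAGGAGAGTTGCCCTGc
MIR395 with arms miR395e-5p_R-1 and miR395a-3p_L-1, chr10:144171670-144171796, plus strand: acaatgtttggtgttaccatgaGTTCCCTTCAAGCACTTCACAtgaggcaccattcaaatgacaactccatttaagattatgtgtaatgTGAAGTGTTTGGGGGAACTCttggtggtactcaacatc

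In the deposited folds, 19 of the 21 bases of miR827-3p pair with the 5p arm, 17 of 21 in miR399e-3p and 18 of 20 in miR395a-3p_L-1. The predicted free energies are -59.9, -92.9 and -56.5 kcal/mol for hairpins of 122, 175 and 127 bases. The miR395 guide strand thus lies on a hairpin whose 5p arm has a row of its own in the table of known miRNAs.

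Levels are given as normalized expression (NE), the reads of a miRNA scaled to the reads of its library (RPM). The smallest common step of NE, taken as 1 read, was 1.15 and 0.837 in IFC replicates 1 and 2, and 0.717 and 0.879 in CFC replicates 1 and 2. On that reading 873087 to 1394658 reads stand behind the NE of a library. The study gives more valid reads than this, so what NE was divided by is not clear, and the read numbers and Wilson intervals below rest on this reading. IFC replicate 1 was the shallowest, with 42 of 161 known miRNAs listed at 0 against 24 to 26 in the other libraries. The known miRNAs summed to an NE of 19255 and 26590 in the IFC libraries and to 28156 and 28278 in the CFC libraries. No miRNA marker of ovary was available to check the tissue. Of the anther phasiRNA triggers, taken as marks of another floral tissue, the 5 miR2118 rows summed to an NE of 33.2 and 49.4 in IFC and 41.6 and 17.6 in CFC libraries. The 2 miR2275 rows were listed at 0 in both IFC libraries and summed to 1.79 and 1.76 in the CFC libraries. Those sums are under the NE of 3 reads (2.15 and 2.64 in CFC), so they cannot be told from 0. The part of these differences in the results below was not tested.

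miR827 was among the most abundant miRNAs of the ovary. zma-miR827-3p had an NE of 2743 and 4564 in the IFC libraries, against 5740 and 4086 in the CFC libraries. It ranked 2 and 1 among the known miRNAs in IFC, and 1 and 2 in CFC. The NE values of the phenotypes overlapped, since IFC replicate 2 lay above CFC replicate 2. With median-of-ratios scaling they did not. Both IFC values then lay below both CFC values, as in 17 of the 145 known miRNAs tested. The log2 fold change of IFC over CFC, on log2(NE + 1), was -0.45 with a standard error of 0.79 (limma, adjusted p = 0.999).

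The longer form, osa-miR827_R+3, stood at an NE of 26.3 and 18.4 in IFC, and 8.60 and 30.8 in CFC libraries. Both IFC values lay between the CFC values, and the log2 fold change was 0.40 with a standard error of 0.84 (limma, adjusted p = 0.999). Without CFC replicate 1 it was -0.46. This sequence with its added bases thus stayed far below zma-miR827-3p in every library. Together the miR827 guide strands held 14.4% and 17.2% of the known NE in IFC, and 20.4% and 14.6% in CFC libraries. The 95% Wilson intervals, which cover counting error only, were 13.9 to 14.9% and 16.8 to 17.7% in IFC, and 20.0 to 20.8% and 14.2 to 14.9% in CFC libraries. They did not overlap between the replicates of either phenotype.

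The mean share was 15.8 ± 2.02% in IFC and 17.5 ± 4.14% in CFC ovaries (SD, n = 2 each). The difference of -1.68 percentage points gave p = 0.667 in the two-sided exact permutation test, adjusted p = 0.667 over the 2 families with guide strands. With 2 libraries against 2 the smallest p this test allows is 0.333. Without CFC replicate 1 the difference was 1.25 points, of opposite sign. With both arms added, miR827 was the second most abundant of 33 families in all 4 libraries.

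By the shape of its level across the 4 libraries, zma-miR827-3p was closest to zma-miR319a-3p_R+1, of a family that acts on TCP factors, among 33 known miRNAs of other families with a mean NE above 50. After each miRNA's own mean was taken off, their log2(NE + 1) differed by 0.24 (root mean square over the 4 libraries). zma-miR166l-3p and zma-miR166a-3p, of a family that acts on HD-ZIP III factors, followed at 0.25 and 0.28, and the median of the 33 was 0.51. zma-miR319a-3p_R+1 had an NE of 2280 and 4014 in IFC and 3402 and 2664 in CFC libraries, low in the same IFC library as miR827-3p. The likeness is a description over 4 libraries, whose depth all of these miRNAs share.

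The miR399 guide strands were rare. zma-miR399a-3p had an NE of 5.35 and 7.25 in IFC, against 9.56 and 14.1 in CFC libraries, and it was the only guide strand whose phenotypes did not overlap in NE. Among all 145 known miRNAs tested, both IFC values lay below both CFC values in 21, which is 14.5%, and both above in 12, which is 8.28%. Of the 5 guide strands tested, 1 was on the lower side and 0 on the higher. Its log2 fold change was -0.80 with a standard error of 0.78 (limma, adjusted p = 0.999). The reads behind these values are few, 4.67 and 8.67 in IFC and 13.3 and 16.0 in CFC, and they are not all whole. Its sequence is held by 3 of the listed hairpins.

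zma-miR399e-3p, which differs from it by 1 base, had an NE of 3.05 and 9.21 in IFC, and 6.21 and 15.2 in CFC libraries. The values overlapped, with a log2 fold change of -0.75 and a standard error of 0.84 (limma, adjusted p = 0.999), which came to -0.08 without IFC replicate 1 and -0.17 without CFC replicate 2. zma-miR399f-3p had 2.29 and 8.37 in IFC, and 2.87 and 16.7 in CFC libraries, with a log2 fold change of -0.58 and a standard error of 0.91 (limma, adjusted p = 0.999). Its sign turned without IFC replicate 1 (0.18) and without CFC replicate 2 (0.52). In both, replicate 2 was higher than replicate 1 in either phenotype. Their values in IFC replicate 1 lay under the NE of 3 reads there (3.44). Those values cannot be told from 0, so the size of both fold changes is uncertain. zma-miR399b-3p was listed at 0 in replicate 1 of IFC and of CFC and reached 0.837 in IFC replicate 2 and 0.879 in CFC replicate 2, 1 read each, and was left out of the test by the filter at an NE of 1.

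**Figure D1:**
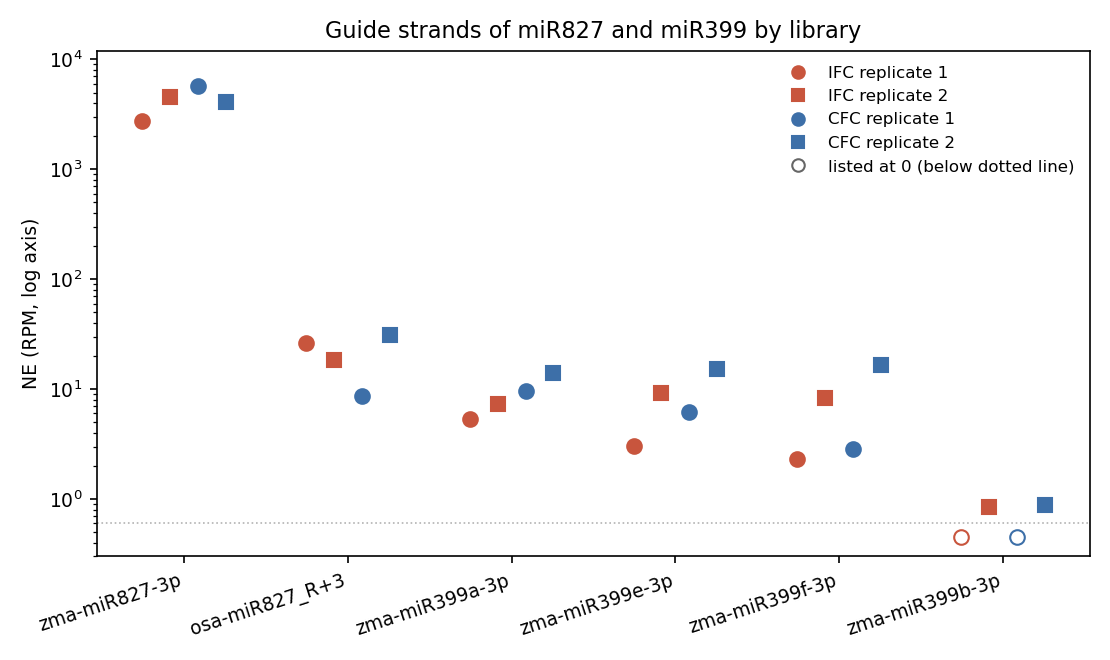
Normalized expression (NE in RPM, log axis) of the 6 guide strands in the 4 small RNA libraries, IFC replicates in red and CFC replicates in blue, 1 point per library with no mean drawn. miR827-3p lies between 2743 and 5740 in all libraries, the miR399 guide strands at 16.7 or less, and only for miR399a-3p do both IFC points lie below both CFC points.

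Summed over the family, the miR399 guide strands held 0.0555% and 0.0965% of the known NE in IFC, and 0.0662% and 0.166% in CFC libraries. The Wilson intervals of the lowest and highest shares were 0.0282 to 0.102% and 0.126 to 0.215%. The mean was 0.0760 ± 0.0290% in IFC and 0.116 ± 0.0704% in CFC ovaries (SD, n = 2 each), a difference of -0.0399 percentage points with p = 0.667 in the exact permutation test (two-sided, adjusted p = 0.667). Without CFC replicate 2 the difference was 0.00981 points, of opposite sign. The sums differed more between replicates than between phenotypes. The ratio of replicate 2 to replicate 1 was 2.40 in IFC and 2.51 in CFC, while the ratio of IFC to CFC was 0.573 in replicates 1 and 0.548 in replicates 2. Whether a replicate number marks 1 ear row across phenotypes is not stated in the labels.

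Over the table of known miRNAs, limma called 0 of 145 at an adjusted p under 0.05 (0%), and 1 of 145 (0.69%) had an unadjusted p under 0.05. None of the 5 guide strands tested was called. The log2 fold change was below 0 for 4 of them and above 0 for 1, with a median of -0.58 against -0.02 over the 145. For the 3 miR399 guide strands tested the median was -0.75, and it came to -0.08 without IFC replicate 1 and to -0.17 without CFC replicate 2, with miR399f-3p then positive. It was -1.33 without IFC replicate 2 and -1.34 without CFC replicate 1. The median of -0.75 rests in part on IFC replicate 1 values of miR399e-3p and miR399f-3p that cannot be told from 0. In whole ovaries, fewer cells that hold a miRNA and less of it per cell cannot be told apart. The copper families, another group of nutrient miRNAs, had 4 guide strands listed, of miR398, miR408 and miR528, of which 2 lay above and 2 below 0 on the log2 scale of the fold change, with a median of 0.11. They held 0.479% and 0.614% of the known NE in IFC, and 0.567% and 0.305% in CFC libraries, more than the miR399 guide strands in each library. Reads of zma-miR399a-3p and zma-miR399e-3p are not all whole, so this order holds for NE as listed.

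In listed NE, the arms of the 2 families were balanced differently. For miR827 the guide strands made up 84.5% and 91.2% of the NE of both arms in IFC, and 87.7% and 81.3% in CFC libraries. The main opposite-arm row, zma-miR827-5p_L+1, had 506 and 441 in IFC, against 808 and 949 in CFC libraries, so both IFC values lay below both CFC values, as in 14.5% of the known miRNAs tested. Its log2 fold change was -0.89 with a standard error of 0.78 (limma, adjusted p = 0.999). The ratio of zma-miR827-3p to this row was 5.42 and 10.3 in IFC, and 7.10 and 4.31 in CFC libraries, and overlapped. The other opposite-arm row of miR827, bdi-miR827-5p_L+2_2ss13TG19CT, was listed at 0 in both IFC libraries and at 1.43 and 0.879 in the CFC libraries, all under the NE of 3 reads (2.15 and 2.64 in CFC), so that no fold is given.

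For miR399 the guide strands made up only 22.0% and 13.1% of both arms in IFC, and 28.3% and 16.8% in CFC libraries. The opposite arm thus carried more of the listed NE in all 4 libraries. Reads of zma-miR399a-3p and zma-miR399e-3p are not all whole, and their sequences lie on 3 and 2 of the listed hairpins. How reads shared by hairpins were counted is not stated, and its part in this balance was not tested. The opposite-arm row with the highest NE summed over the 4 libraries, though not in CFC replicate 1, was zma-miR399c-5p. It had an NE of 16.0 and 92.9 in IFC, and 5.74 and 177 in CFC libraries. Replicate 2 exceeded replicate 1 by a ratio of 5.79 in IFC and 30.8 in CFC, and both phenotypes overlapped widely. zma-miR399e-5p had 8.02 and 27.6 in IFC, and 12.9 and 17.6 in CFC libraries. zma-miR399f-5p had 12.6 and 46.9 in IFC, and 28.0 and 36.9 in CFC libraries. In each of these 3 rows replicate 2 was the higher in both phenotypes. The other 4 opposite-arm rows of miR399 stayed at an NE of 1.67 or less, among them miR399j-5p_L-1, with 0 and 0.837 in IFC and 0 and 0.879 in CFC libraries.

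The only miR395 row, zma-miR395e-5p_R-1, had an NE of 0.382 and 0.837 in IFC, and 0.478 and 0.586 in CFC libraries, 1 read or less in each. It was not tested, and with no guide row the share of miR395 guide strands has no value here. As a family miR395 ranked 30 and 29 of 33 in IFC, and 30 and 32 in CFC libraries, and miR399 with both arms ranked 18 and 11 in IFC, and 17 and 10 in CFC libraries.

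**Figure D2:**
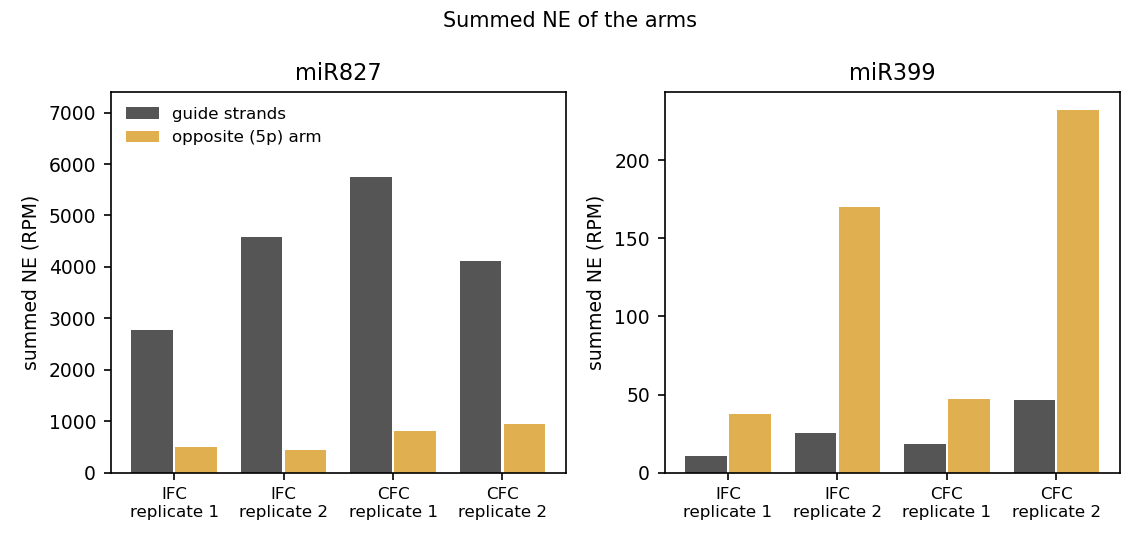
Summed normalized expression (NE in RPM) of the guide strands (grey) and of the opposite 5p arm (yellow) of miR827 and miR399 in each library, with a separate axis for each family. The guide strands are the taller bar for miR827 and the shorter bar for miR399 in all 4 libraries.

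The degradome libraries address where transcripts of the ovary are cut. In such a library the 5′ ends of uncapped RNA are sequenced, and a miRNA that directs cleavage leaves such an end at the base opposite its position 10 or so. The signal at a site is given as TPB, tags scaled to the raw reads of the degradome library, and 1 tag was worth 59.1 TPB in the IFC and 59.9 TPB in the CFC degradome. The site category runs from 0, the single highest peak of the transcript, and 1, a shared highest peak, through 2, below the highest peak but above the median, and 3, at or below the median, to 4, a lone read. With 1 library per phenotype there is no test between phenotypes, and the intervals of ratios below cover counting error alone.

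The 4 opposite-arm names with sites in the degradome table are printed here, seeds in capitals, because 9 of the 13 rows of these families go to them and not to guide strands.
zma-miR399j-5p_L-1: gGCAGCTCtcctctggcagg
zma-miR399d-5p: gTGTGGCTctcctctggcatg
zma-miR399h-5p_L-1: tGCAGTTCtcctctggcacg
zma-miR395e-5p_R-1: gTTCCCTTcaagcacttcaca
A further name, zma-miR395k-5p_R-1_1ss4TC, has the same sequence as the last, so the 6 names of the 13 rows stand for 5 sequences.

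The site that stood out between the libraries was in GRMZM2G051917, annotated as a plasma-membrane choline transporter family protein. The transcript GRMZM2G051917_T01 had 946 TPB at base 1820 in the IFC degradome, 16 tags, against 59.9 TPB, 1 tag, in the CFC degradome. The ratio of IFC to CFC was 15.8, with an exact interval of 2.45 to 662. The interval does not allow for the site being singled out by this ratio, so it is a description. Counted from the 3′ end of the alignment without regard to gaps, the site lies opposite position 10 of zma-miR399j-5p_L-1. The alignment spans bases 1811 to 1829 of the transcript, 19 bases for a miRNA of 20, so the position is not exact. Its score was 4, where 0 is a match at every base. The site was of category 2 in IFC and category 4 in CFC, and the CleaveLand p-values deposited with it were 0.912 in IFC and 0.951 in CFC.

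The miRNA named at this site was itself seen as 1 read in replicate 2 of IFC and of CFC and listed at 0 in both replicates 1. A difference in its level was not detectable at this depth. Its 3p partner on the same hairpin, zma-miR399e-3p, had an NE of 9.21 or less in IFC and 15.2 or less in CFC libraries. That sequence is held by 2 of the listed hairpins, so its NE cannot be given to this hairpin alone. Among the 26 genes of the whole degradome table with a site of at least 10 tags in either library, GRMZM2G051917 had the highest ratio of IFC to CFC. It entered this set through its IFC tags alone, and its CFC signal of 1 tag is under the 3 tags (180 TPB) that a count of 0 would allow, so the rank is a description. The next were 2.71 for AC217264.3_FGT005, 2.22 for GRMZM2G076602, 1.22 for GRMZM2G028054 and 1.15 for GRMZM2G110579, and the median of the 26 was 0.845.

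**Figure D3:**
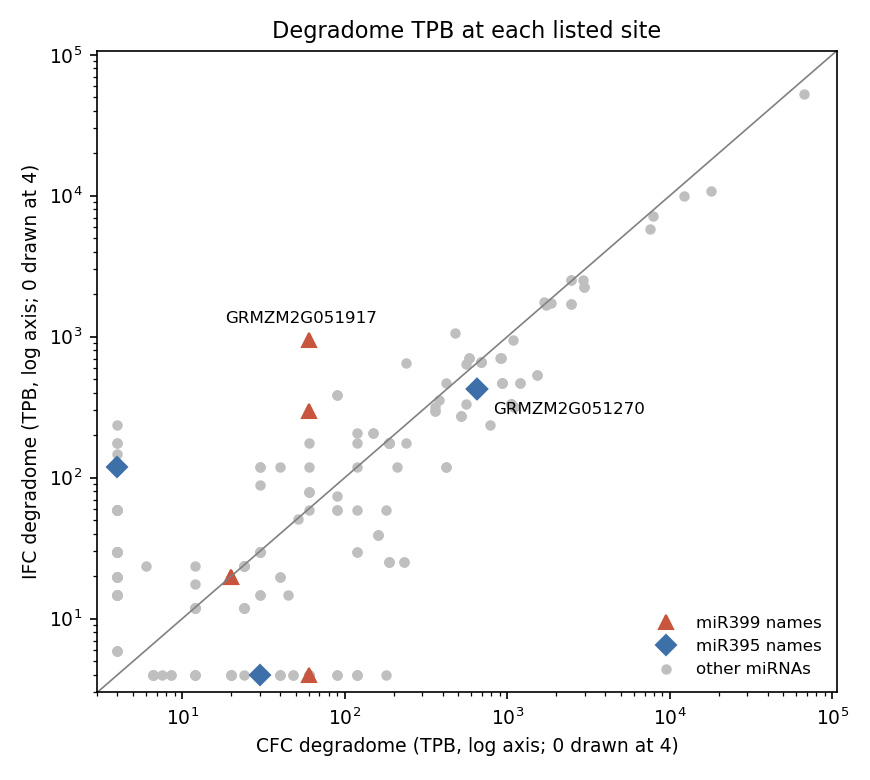
Degradome signal (TPB, log axes, 0 drawn at 4) at each listed site in the IFC degradome against the CFC degradome, with sites of miR399 names as red triangles, of miR395 names as blue diamonds and of all other miRNAs in grey. The line marks equal signal; GRMZM2G051917, at 946 TPB in IFC and 59.9 TPB in CFC, lies farthest above it among sites with at least 10 tags, and GRMZM2G051270 lies below it.

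A second site of the family, in GRMZM2G085932, a mitochondrial glycoprotein family protein by its annotation, was also higher in IFC. It had 296 TPB (5 tags, category 2) in the IFC degradome, against 59.9 TPB (1 tag, category 4) in the CFC degradome, at base 379. Counted in the same way, that base lies opposite position 10 of zma-miR399d-5p, with an alignment of 20 bases for a miRNA of 21. The ratio was 4.93 with an exact interval of 0.552 to 233, which includes equal signal. The CleaveLand p-values were 0.518 in IFC and 0.596 in CFC. zma-miR399d-5p was listed at 0 in every small RNA library but CFC replicate 1, where it had 0.717, 1 read.

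The other miR399 sites held 1 tag or less. GRMZM2G002807, annotated as triosephosphate isomerase, a glycolytic enzyme, had 0 TPB in IFC and 59.9 TPB in CFC at a site of zma-miR399j-5p_L-1. GRMZM2G011491, of the pentatricopeptide repeat proteins, which process organelle RNA, had 19.7 TPB in IFC and 20.0 TPB in CFC at a site of zma-miR399h-5p_L-1 listed on 2 transcripts, 0.33 of a tag in each library. No site of a miR399 guide strand is in the table, and none of the 471 rows has an annotation with the words SPX, phosphate transporter, PHO1, PHO2 or ubiquitin-conjugating.

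For miR395 the site with the best alignment was in GRMZM2G051270. Its transcript T02 is annotated as ATP sulfurylase 1, the first enzyme of sulfate assimilation. T01 and T03 of the same gene carry the annotation pseudouridine synthase/archaeosine transglycosylase-like family protein. The site had 429 TPB in IFC and 649 TPB in CFC, 7.25 and 10.8 tags, and the same value on all 3 transcripts. The ratio of IFC to CFC was 0.660, with no interval because the tags are not whole. It was the single highest peak of its transcript in both libraries (category 0), with CleaveLand p-values of 0.0110 in IFC and 0.0113 in CFC, an alignment score of 2 and the site opposite position 10 of zma-miR395a-3p_L-1.

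This was the only gene of the 3 families with a site in category 0 or 1 and a p-value at or under 0.05, 3 of the 13 rows (23.1%), against 220 of the 471 rows (46.7%). The word sulfurylase occurred in 1 of the 471 annotations, the T02 row of this gene, whose 3 rows share the site, and sulfate transporter and sulphate in 0. The guide strand named at the site had no row among the known miRNAs, while the site had signal in both degradome libraries. The median alignment score was 4 in rows of the 3 families and 3 over all rows.

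The same miR395 guide strand had a site in GRMZM2G110423, a RING/U-box protein, of a superfamily that holds many ubiquitin ligases. It had 118 TPB (2 tags, category 2) with a CleaveLand p-value of 0.216 in IFC and 0 TPB in CFC, which allows up to 180 TPB (3 tags). The miR395 5p arm was listed at GRMZM2G054225, annotated as nuclear RNA polymerase D2A and listed in RefSeq with the synonyms RPD2 and rmr7, a subunit of the polymerases of RNA-directed DNA methylation. Its site had 0 TPB in IFC and 30.0 TPB in CFC, 0.5 of a tag, on 2 transcripts and under both names of the sequence.

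In the RefSeq annotation of the maize assembly Zm-B73-REFERENCE-NAM-5.0, GRMZM2G054225 lies next to MIR395a with 0 annotated genes between them. The other MIR395 genes of that chromosome, which holds 8 of the 15 annotated in all, lie at most 8 genes from it. RefSeq held 6 of the 7 genes of these families by the identifiers of the degradome table, and GRMZM2G051917 was not among the 6.

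**Figure D4:**
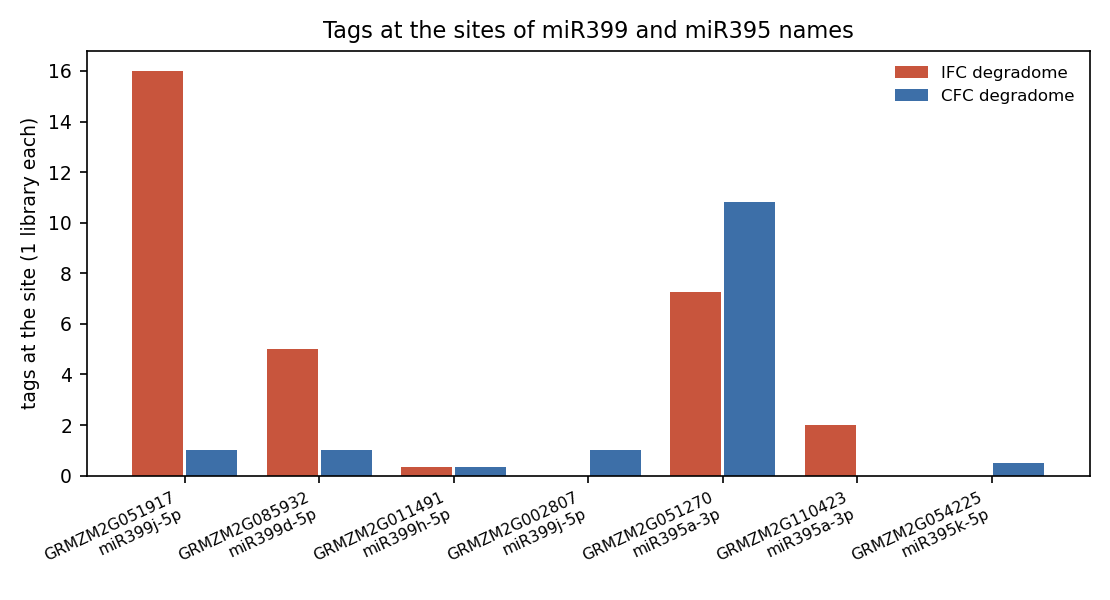
Tags at the site of each of the 7 genes listed for miR399 and miR395 names, in the IFC degradome (red) and the CFC degradome (blue), 1 library each and no error bar. GRMZM2G051917 has 16 tags in IFC and 1 in CFC, GRMZM2G051270 has 7.25 in IFC and 10.8 in CFC, and the other 5 genes have 5 tags or fewer. Bars show the value listed on 1 transcript per gene. The tags of GRMZM2G051270, listed on more than 1 transcript, are not whole. How tags shared by transcripts were counted is not stated, so a bar need not be the total of its gene.

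Over all rows of the degradome table, 285 of 471 had more than 3 tags in either library. Of these 11 (3.86%) had at least 2 times the TPB in IFC, and 69 (24.2%) had at most 0.5 times the CFC value in IFC. Among rows of the 3 families 5 of 13 had more than 3 tags, and 2 of these 5, in GRMZM2G051917 and GRMZM2G085932, had at least 2 times the TPB in IFC, while the other 3 are the transcripts of GRMZM2G051270. Both rows had more than 3 tags only in IFC, and the interval for GRMZM2G085932 includes equal signal, so the count is a description. Rows that share a gene and a site are not independent.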

How the data were processed

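Small RNA was sequenced from 2 IFC and 2 CFC ovary samples and degradome tags from 1 mix of samples per phenotype, and samples were grouped by the labels. The authors took out adapters, junk, structural and repeat RNA and exon reads, found known miRNAs against miRBase with ACGT101-miR, and deposited NE, an RPM value. The genome build is not given in the sources used here. For degradome sites the authors deposited the signal as TPB, a CleaveLand p-value per library, and an alignment score, and kept sites with p-values above 0.05. Per the file headers, peak categories run from 0 to 4.

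Of the NE values above 0, 63.0 to 70.1% per library were whole multiples of the NE of 1 read (within 0.01), too few for a count test. Known miRNAs whose highest NE passed 1 entered the fit on log2(NE + 1), made in R 4.3.3 with limma 3.58.1 and no block, two-sided, with Benjamini-Hochberg adjustment over all 145. The p-values of limma and of the permutation tests rest only on the spread between these samples. limma pools this spread in part over the 145 miRNAs, and with no block it includes differences between ear rows. The CleaveLand p-values measure no spread between samples. In 100 simulated sets of 145 miRNAs, 95.8% of changes of 4 on the log2 scale were recovered, and the unadjusted p was under 0.05 for 5.02% of those left unchanged. The simulation raised low means and gave all miRNAs the same spread. The log2 fold changes fitted to the data lay between -1.87 and 2.30, and recovery of changes of that size was not tested. Shares were compared with exact permutation tests in scipy 1.17.1 (Python 3.11.15, numpy 2.4.6, pandas 2.3.3, matplotlib 3.10.9). Ratios of TPB have exact conditional 95% intervals where both tag numbers are whole.

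Named were all guide strands and 5p rows of the 3 families, all their degradome rows, the 3 miRNAs most like zma-miR827-3p and the 5 genes with the highest ratio of TPB. The members and lists were chosen with earlier results of these data known. Alternatives were other pseudocounts, filters and scalings, a trend and robust prior, equal sequences counted once, a replicate block, each library left out, other denominators, and stricter degradome criteria. The target prediction table, which has no row of these families, and 1 line of the table of known miRNAs were not used here.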

Additional observations from a re-analysis of the deposited data

How the results depend on the processing

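With 2 libraries per phenotype, and 1 degradome library each, small differences cannot be told from the spread, and an NE under that of 3 reads cannot be told from 0. limma called 0 known miRNAs under each alternative, of 100 to 161 tested, leaving out any 1 library included (0 to 0), except where each library was scaled to the same sum of known NE, which called 7. All 7 were listed at 0 in both libraries of 1 phenotype and at an NE of 1.43 or less elsewhere, and 1 was of these families, bdi-miR827-5p_L+2_2ss13TG19CT (adjusted p = 0.0420). That scaling raises all values while the pseudocount stays at 1, and the median of all log2 fold changes was then 0.29. The replicate number as a block also called 0, with 3 unadjusted p-values under 0.05. Deviations of same-numbered samples had r = 0.25 over 145 miRNAs and r = 0.49 over the 12 rows tested of these families (description only, with 2 pairs), and since the labels do not tie a number to an ear row, the block stays an alternative.

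The guide strands kept their sign under the 9 alternatives that keep all 4 libraries. With median-of-ratios scaling, 2 of the 5 tested had both IFC values below both CFC values, zma-miR827-3p and 1 of miR399. With 1 library left out, the log2 fold change ranged over -0.82 to -0.09 for zma-miR827-3p, -0.46 to 1.26 for osa-miR827_R+3 (-0.46 without CFC replicate 1), -1.06 to -0.55 for zma-miR399a-3p, -1.42 to -0.08 for zma-miR399e-3p and -1.67 to 0.52 for zma-miR399f-3p (0.18 without IFC replicate 1 and 0.52 without CFC replicate 2). The difference in share ranged over -4.61 to 1.25 percentage points for miR827 and -0.0897 to 0.00981 for miR399 (0.00981 without CFC replicate 2), and kept its sign in the other alternatives. A denominator of all rows equals the known NE, since the table holds no other rows, and was not run. For miR395 guide strands no share exists.

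Of the degradome rows of these families, 2 were past the 2-fold mark, as with TPB scaled to the summed TPB and with each gene counted once. The number was 0 when only category 0 or 1 with p-values at or under 0.05 was kept, and 0 with an alignment score of at most 3, because both criteria leave only GRMZM2G051270. Scaled to the summed TPB, the ratio was 20.2 for GRMZM2G051917, 6.31 for GRMZM2G085932 and 0.845 for GRMZM2G051270.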
